A study of Mus musculus with 2 samples.

Results

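Foxp4 sites were examined at 10 intracellular effector and target genes of TGF-beta and BMP signalling: the Smad genes Smad2, Smad3, Smad4, Smad6 and Smad7, the corepressor genes Ski and Skil, and the Id genes Id1, Id2 and Id3. Foxp4 is a forkhead transcription factor, and the study asked where it sits on the genome while precursor cells start to become beige adipocytes, the fat cells of white depots that can acquire heat-producing capacity. The peaks were chosen by position: a peak was included when the deposited list named one of the 10 genes as its nearest gene, or when its midpoint lay within 100 kb of the gene body. By this rule 6 of the 3317 peaks were included, and each belonged to a different gene. Smad2, Smad4, Smad6, Smad7, Ski and Id3 had 1 peak each, and Smad3, Skil, Id1 and Id2 had none.

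The series held 1 library of DNA precipitated with a Foxp4 antibody and 1 library of input DNA. Both came from the stromal vascular fraction of inguinal white fat of C57BL/6 mice, a mixed population of precursors and other non-adipocyte cells. The cells had been cultured for 3 days with 20% serum and then induced for 48 h with 10% serum, insulin (5 µg/ml), isobutylmethylxanthine (0.5 mM), dexamethasone (1 µM), T3 (50 nM) and troglitazone (5 µM). The labels do not state the age or sex of the mice or whether animals were pooled. What was analysed is the peak list that the authors made from the ChIP library, so there is no uninduced or Foxp4-depleted group, no replicate error and no test between conditions. Read depth is unknown. A peak list holds no expression values, so it cannot show which cells of the mixture carried a site, whether the labelled cell type was present or whether any of these genes was expressed.

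In TGF-beta and BMP signalling, receptor kinases at the cell surface phosphorylate receptor-regulated Smad proteins, which bind Smad4 and enter the nucleus. Smad2 and Smad3 serve the TGF-beta and activin branch, and Smad1, Smad5 and Smad9 serve the BMP branch. Smad6 and Smad7 inhibit the pathway, Ski and the protein of Skil (SnoN) hold Smad complexes in a repressed state, and the Id proteins, which are typical BMP targets, bind basic helix-loop-helix factors and keep them from DNA. In fat, TGF-beta acting through Smad3 restrains the differentiation of precursors, whereas BMP signals can commit them to the adipocyte lineage.

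The promoter peak of the group lay at Ski, and the sequence between it and the start site is shown first because it is the only start region of the 10 genes with a peak within 3 kb that names it. The peak covered chr4:155223059-155223367 (mm10), from 524 to 832 bp upstream of the start of Ski, which is read toward lower coordinates. RefSeq (GRCm38.p6, the assembly behind mm10) supplied the 250 bases before the start site, chr4:155222536-155222785, minus strand. This stretch ends 273 bases short of the peak, and the sequence under the peak was not used here. Capitals mark the motif GGCGCC, a GC-rich element known from BMP target genes.

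Ski, 250 bases before the start: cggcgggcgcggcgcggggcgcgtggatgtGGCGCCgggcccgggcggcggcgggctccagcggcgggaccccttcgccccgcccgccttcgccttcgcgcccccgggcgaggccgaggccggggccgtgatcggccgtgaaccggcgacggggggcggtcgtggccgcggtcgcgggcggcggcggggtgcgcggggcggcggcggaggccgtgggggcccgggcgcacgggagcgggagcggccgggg

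The start region of Ski was extreme in base composition. Its RefSeq window of 300 bases (the 250 above and the first 50 of the transcript) was 85.3% G or C and held 59 CG dinucleotides, against a median of 52.7% (quartiles 45.7 to 61.7) and 7 CG over 32851 such windows of the reference, and 99.9% of those windows had a lower G and C content. Windows were given for 5 of the 10 genes. Those of Smad3 (67.7%), Smad6 (66.3%), Id2 (63.3%) and Id3 (60.0%) were also above the median.

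None of these 5 windows held the forkhead core TGTTTAC on either strand, which was present in 3.65% of all windows. The shorter TGTTT, which TGTTTAC contains, occurred in the windows of Smad3, Smad6 and Id3, and in 50.5% of all windows. The full Smad-binding element GTCTAGAC occurred at Smad6, across its start site, and in 0.213% of all windows (70 of 32851). The shorter motif CAGAC, also bound by Smads, occurred at Id3 (49.6% of all windows), GGCGCC at Ski and Id2 (11.9%), and the E-box CANNTG, the site class of basic helix-loop-helix factors, at Smad6 and Id2 (72.3%). Both strands were searched throughout, and tandem runs of at least 4 copies of TTG or TTTG occurred in none of the 5 (0.234% and 0.277% of all windows). These letters describe the start regions and say nothing about binding, since none of the 5 windows overlaps a peak of the group. The GTCTAGAC and TGTTT matches at Smad6 and the TGTTT match of Id3 that lies before the start are shown with 11 bases on each side, with that motif in capitals and any other motif left in lower case.

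Smad6, chr9:64022045-64022074, minus strand, GTCTAGAC from 4 bases before to 4 bases after the start: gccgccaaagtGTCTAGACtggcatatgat
Smad6, chr9:64022086-64022112, minus strand, TGTTT from 42 to 38 bases before the start: acttgaaacctTGTTTgcgcaacaatc
Id3, chr4:136143746-136143772, plus strand, TGTTT from 65 to 61 bases before the start: ccttggcggtcTGTTTtgaataagggg

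The share of the 10 genes with a peak was higher than that of protein-coding genes by each of 5 rules, although the counts are small. The deposited list named 4 of the 10 as a nearest gene (40.0%, exact 95% binomial interval 12.2 to 73.8), against 9.11% of 21883 protein-coding genes. A peak midpoint lay within 100 kb of the gene body for 6 of the 10 (60.0%, 26.2 to 87.8), against 27.6% of protein-coding genes. Within 20 kb it was 4 of 10, namely Smad2, Smad6, Smad7 and Ski, against 11.1%. Inside the body it was 1 of 10, Smad6, against 5.36%, and 1 of 10, Ski, was named by a peak at most 3 kb from its start site, against 2.08%. The intervals include the share of protein-coding genes for the 100 kb window, the gene body and the start site, and lie above it for the nearest gene and the 20 kb window. The intervals cover counting error over genes of 1 library only, and neighbouring genes are not independent. The counts are descriptions, with no test, because the genes were proposed with the peaks known.

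**Figure D1:**
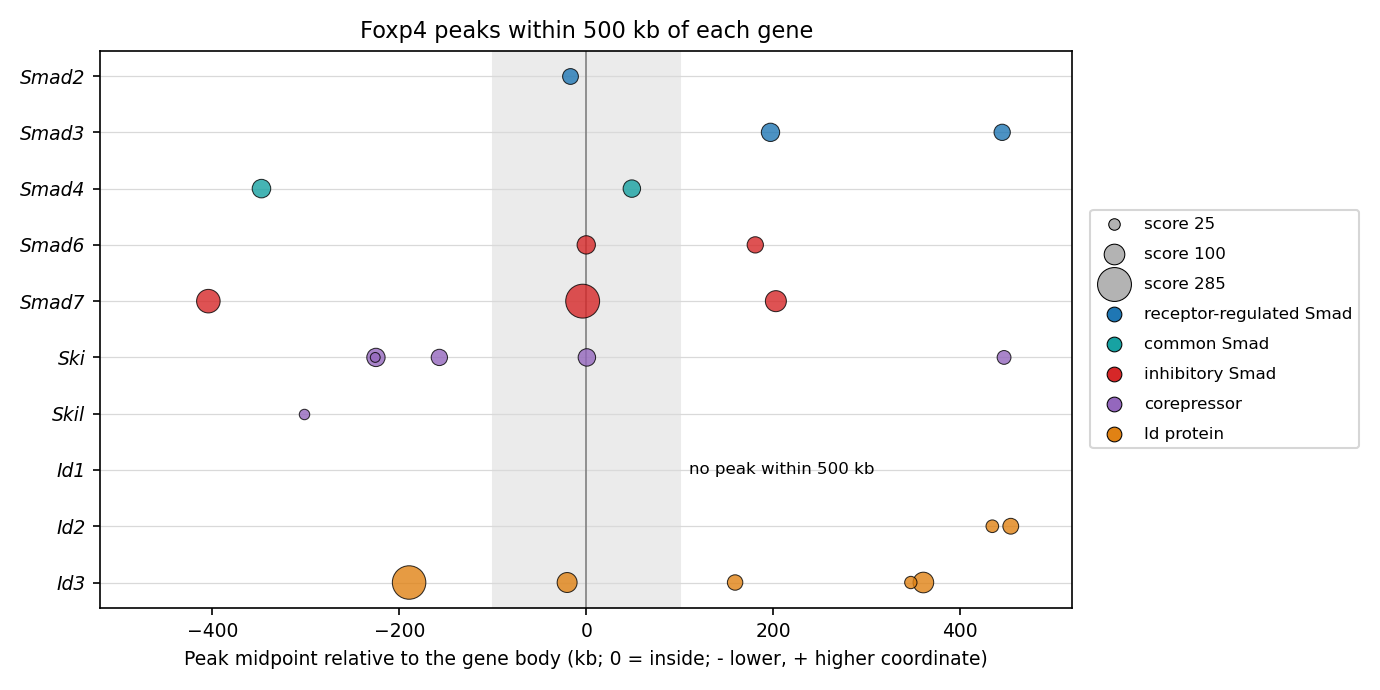
Each row is a gene and each circle a Foxp4 peak, placed by the distance of its midpoint from the gene body in kb (0 is inside the body), with area rising with the peak's score and colour by the gene's role. The grey band marks 100 kb on each side: it holds 1 peak each at Smad2, Smad4, Smad6, Smad7, Ski and Id3, the largest at Smad7 with a score of 285.

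The strongest site of the group lay beside Smad7, an inhibitory Smad gene that the deposited list did not name. This peak (chromosome 18, 75363229 to 75363813, 585 bp wide) had a score of 285, which ranked 146 of 3317, and 95.5% of all peaks scored lower. The score is the authors' whole number for each peak, whose scale no source used here gives, so it serves only to rank peaks of this list. The midpoint lay 3.84 kb below the lower-coordinate end of the Smad7 body, and no other protein-coding gene body was closer. The list gave the peak to Gm20544, a long non-coding RNA gene of 8.45 kb, and placed it in the last of its 6 introns, 3.57 kb from its start site. That start site, as implied by the distance in the list, is at 75367088, which is 277 bp from the Smad7 body, with Gm20544 running away from Smad7. The strand of Smad7 was not used here, so no distance from its start site is given.

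Smad6, the other inhibitory Smad gene, had its peak inside the gene. The peak (chromosome 9, 63954906 to 63955221, 316 bp) had a score of 77, rank 1300, and lay in intron 3 of 3. This is the far end of the gene: the midpoint was 67.0 kb from the start site and 1.99 kb from the other end of the 69.0 kb body. It was annotated on B1_Mus1, a short interspersed element of the B1 class. The next peak of the locus was 181 kb away with a score of 59 and was named for Snapc5.

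Among the Smads that carry the signal, sites lay outside the genes. Smad2, which transmits TGF-beta and activin signals, had an intergenic peak (chromosome 18, 76223361 to 76223691) at -18.2 kb from its start site, with a score of 55, the lowest of the 6, and rank 1937. Smad4, the shared partner of all receptor-regulated Smads, was reached only through the window. Its peak (chromosome 18, 73752387 to 73752739, score 69, rank 1498) lay 48.8 kb above the gene body, inside intron 1 of Elac1, a gene for a tRNA-processing enzyme that the list named, at 1.92 kb from the Elac1 start site. Elac1 and Me2, a mitochondrial malic enzyme gene, were both closer to this peak than Smad4 was. Smad3, the other TGF-beta Smad, had no peak within 100 kb. The closest was the Smad6 peak, 197 kb away, since the bodies of Smad3 and Smad6 are 195 kb apart on chromosome 9.

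The corepressor genes differed from each other. The Ski promoter peak had a score of 69 and a rank of 1498, the same as the peak near Smad4, with 53.7% of all peaks scoring lower. Its midpoint was at -678 bp from the start site and its near edge 523 bases from the gene body. Skil had no peak within 300 kb. Its closest peak lay 302 kb away in the 5' UTR of Sec62, with a score of 19 and a rank of 3186. For 52.2% of protein-coding genes a peak was at least as close.

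Of the Id genes, Id3 had a site and Id1 and Id2 had none within 100 kb. Id3 had an intergenic peak (chromosome 4, 136123211 to 136123545, 335 bp) at -20.4 kb from its start site, just beyond the 20 kb limit, with a score of 93 and rank 982, the second highest of the 6. The peak was annotated on a (TG)n simple repeat. Id2 and Id1 had their closest peaks 434 kb and 637 kb away, and 62.3% and 72.1% of protein-coding genes had a peak at least as close. The peak closest to Id1, in Asxl1, had the same score as the Smad7 peak (285). The 3 Id genes are short, between 1.16 and 2.29 kb, which makes their windows smaller. Of the 5034 protein-coding genes under 5 kb 17.5% had a peak within 100 kb, against 1 of these 3, and of the 8114 genes of 20 to 120 kb 30.6% had one, against 5 of the 7 Smad and Ski family genes.

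**Figure D2:**
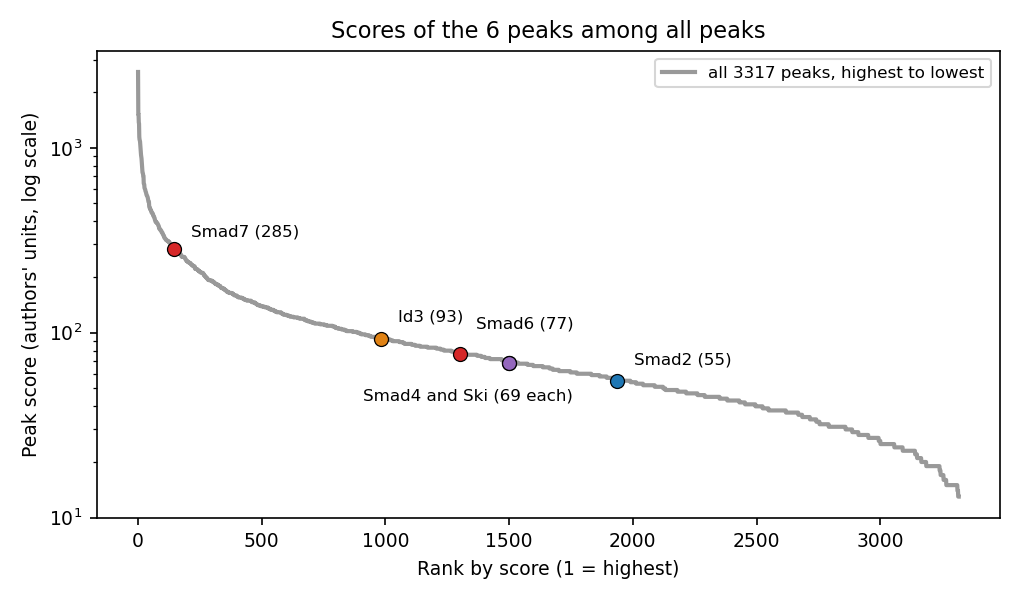
The grey line gives the score of every peak of the list (log axis, authors' units) from the highest to the lowest, and the circles mark the 6 peaks. The Smad7 peak stands at rank 146, and the other 5 lie between ranks 982 and 1937, in the middle of the list.

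Apart from the Smad7 peak the scores were ordinary. The median of the 6 was 73, against 65 for all peaks (quartiles 41 to 104), and 5 of the 6 scored above 65, against 49.3% of all peaks. Their median width was 333 bp, against 393 bp for all peaks (quartiles 333 to 487). The Smad7 peak, at 585 bp, was the widest, and the other 5 were between 309 and 353 bp. By annotation 3 of the 6 lay in introns (1 in its own gene, 2 in a neighbour), 2 were intergenic and 1 was a promoter peak, against 38.3%, 50.5% and 8.38% of all peaks.

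Most of these peaks lay on annotated repeats. Promoter peaks were left out of this count, and 4 of the 5 other peaks here lay on one (80.0%, exact 95% binomial interval 28.4 to 99.5). Of the 3039 such peaks of the whole list 25.4% did. All 5 were intronic or intergenic, whereas the 3039 also hold other classes, such as UTR peaks, so the 2 shares have unlike bases. At 2 of the 5, near Smad4 (B1_Mur1) and in Smad6 (B1_Mus1), the element was a B1, against 2.44% of the 3039 (74 peaks). The Smad2 peak lay on URR1A, a DNA transposon of the hAT-Charlie class, and the Id3 peak on (TG)n. The Smad7 peak was the 1 without a repeat. The 74 B1 peaks had a median score of 72.5, close to the 77 and 69 of the peaks at Smad6 and Smad4. The 44 peaks on (TG)n or (CA)n, counted together, had a median of 84.5, against 93 at Id3. No source used here says what was done with reads that align to several copies of a repeat, and their part in these peaks was not tested.

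The limit of 100 kb fell in an empty range. The farthest peak inside it was the one 48.8 kb from Smad4, and the closest outside it lay at -157 kb from Ski (score 59, in Plch2), 159 kb from Id3 (score 52, named for Hnrnpr) and 181 kb from Smad6. Farther out, peaks with scores of 104 and 133 lay at 203 kb and -404 kb from Smad7. Within 500 kb, Id3 and Ski had 5 peaks each, Smad7 had 3, Smad3, Smad4, Smad6 and Id2 had 2 each, Smad2 and Skil had 1 each and Id1 had 0.

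**Figure D3:**
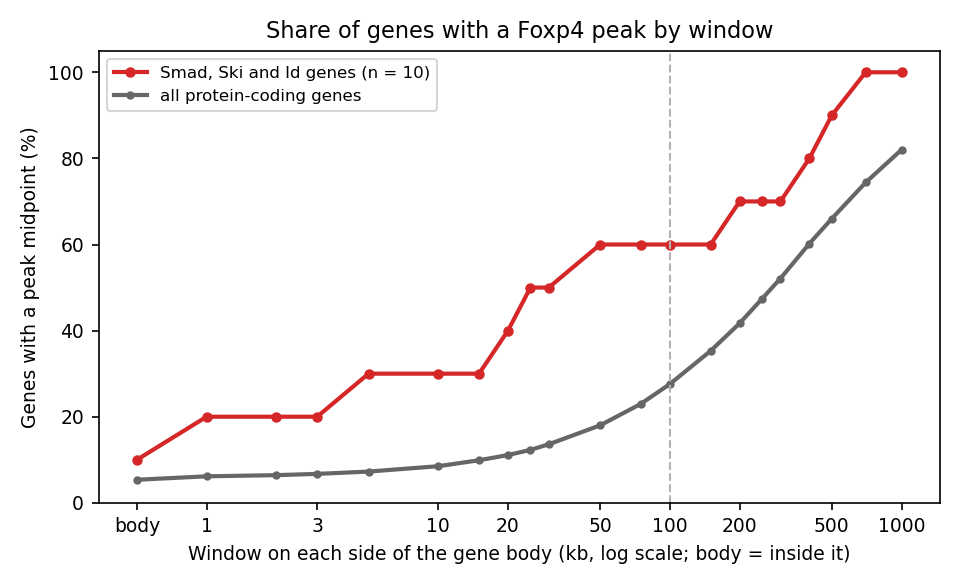
The share of genes with a peak midpoint in a window around the gene body is plotted against the window (kb on each side, log axis), for the 10 genes and for all 21883 protein-coding genes, with points at the windows computed. The 10 genes lie above the others at every window plotted, with 60.0% against 27.6% at 100 kb (dashed line), and all 10 have a peak within 700 kb.

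Counted as density, the windows of the 10 genes spanned 2.445 Mb and held 6 peaks, 2.45 per Mb (exact 95% Poisson interval 0.901 to 5.34). The joined windows of all protein-coding genes held 1.46 per Mb, which is inside that interval. The median distance from the gene body to the closest peak was 34.6 kb for the 10 genes, against 277 kb for protein-coding genes. These medians are a description: gene length was not matched, and the genes were chosen with earlier results of these data known.

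The rest of the pathway was read from 97 other genes grouped by role. Of these, 29 were named as a nearest gene (29.9%, 21.0 to 40.0), against 9.11% of protein-coding genes. A peak lay within 100 kb of the body for 51 (52.6%, 42.2 to 62.8), against 27.6% of protein-coding genes. The shares of the 10 genes, 40.0% and 60.0%, have intervals that include 29.9% and 52.6%. With 10 genes these intervals are wide, and a difference between the 10 and the 97 genes was not tested. The 51 peaks that name the other 97 genes had a median score of 53 (range 15 to 381), against 73 for the 6, and 1 of the 51 reached the score of the Smad7 peak. Repeats were annotated at 16 of the 46 that were not promoter peaks (34.8%), of which 0 were B1 elements.

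Within the effector classes themselves and their regulators, 3 of 21 further genes were named (14.3%, against 9.11% of protein-coding genes) and 8 of 21 had a peak within 100 kb (38.1%, against 27.6%). Of the BMP Smads Smad1, Smad5 and Smad9, 0 of 3 were named and 1 had a peak within 100 kb, and Id4 had neither. Of the corepressor genes Tgif1, Tgif2, Ncor1 and Sin3a, 1 of 4 was named, Tgif1, with a score of 62 at 64.5 kb, and 2 of 4 had a peak within 100 kb. The Tgif1 peak lay outside the gene body, in an intron of another transcript. Among 13 genes for Smad anchors, ubiquitin ligases and related regulators, 5 had a peak within 100 kb and 2 were named: Pmepa1, whose protein takes TGF-beta Smads out of signalling (score 109, at -76.2 kb), and its relative Ldlrad4 (score 41, at -1115 bp).

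Receptors start the pathway upstream of the Smads. Of 13 receptor genes 6 were named (46.2%, 19.2 to 74.9) and 9 had a peak within 100 kb (69.2%, 38.6 to 90.9). For protein-coding genes the 2 shares are 9.11% and 27.6%, here and for the roles below. The highest scores were at Tgfbr1 (175, at -59.1 kb), Acvr2a (102, at -816 kb) and Tgfbr2 (72, in intron 1), and Acvr2b had the promoter peak (41, at -301 bp). The Tgfbr1 peak lay outside the gene body, in an intron of another transcript. Of 21 ligand genes 4 were named (19.0%) and 9 had a peak within 100 kb (42.9%). Inhbb, an activin subunit gene (179, at -35.7 kb), Gdf15 (65) and Bmp6 (33) had the highest scores. Of 20 antagonist and latency genes 7 were named (35.0%) and 14 had a peak within 100 kb (70.0%). Ltbp1, which holds latent TGF-beta in the matrix, had a score of 257 in intron 2, Fstl1 had 126 and the TGF-beta-binding proteoglycan gene Dcn had 124 at 40 bp from its start, while Fst, which encodes the activin antagonist follistatin, had a peak of score 25 at 1609 bp.

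Other target genes held the highest-scoring peak of the pathway list. Of 17 such genes 7 were named (41.2%) and 9 had a peak within 100 kb (52.9%), against 9.11% and 27.6% of protein-coding genes. Runx2, an osteoblast factor gene, had a score of 381 in intron 4, Junb, an AP-1 subunit gene, had 115 at -135 bp, and the cell cycle inhibitor gene Cdkn2b had 101 at -40.7 kb. The Cdkn2b peak lay outside the gene body, in an intron of another transcript. Hes1 and Nuak1 had peaks within 3 kb of their start sites, with scores of 50 at -1185 bp and 48 at -286 bp. Of 5 genes of the branch that runs through the kinase Tak1, 2 were named (40.0%) and 2 had a peak within 100 kb (40.0%). The named genes were Map3k7, which encodes Tak1 (122, at 216 kb), and Traf6 (60). Differences between roles were not tested.

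**Figure D4:**
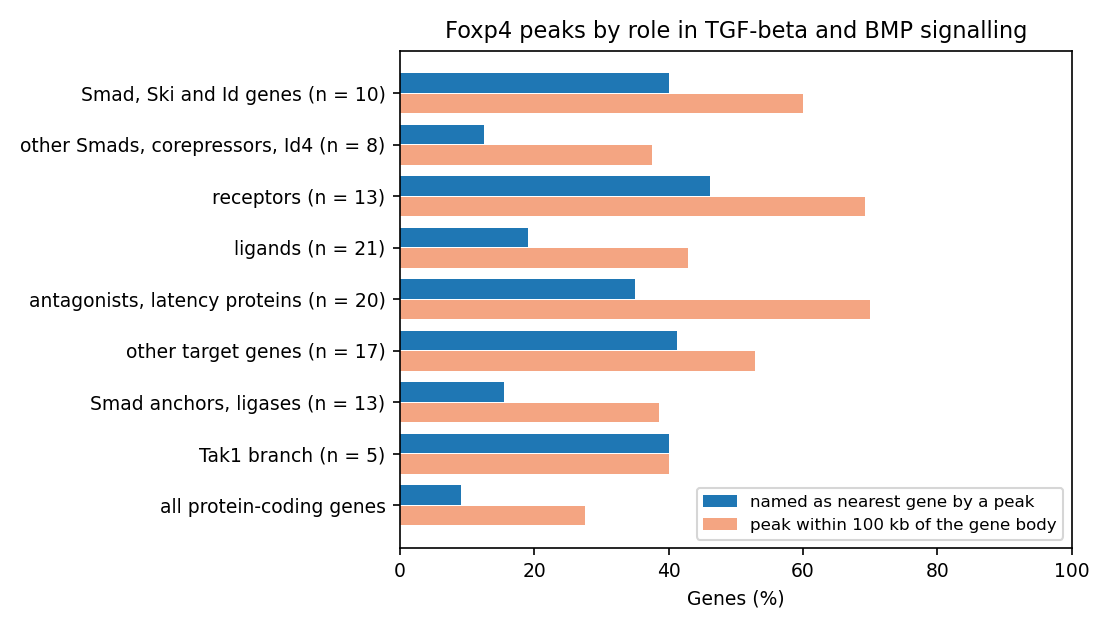
Bars give the percentage of genes of each role that a peak names as nearest gene (blue) and that have a peak within 100 kb of the gene body (orange), with the 10 genes on top and all protein-coding genes at the bottom. The 10 genes stand at 40.0% and 60.0%, receptors at 46.2% and 69.2%, antagonists and latency proteins at 35.0% and 70.0%, and all protein-coding genes at 9.11% and 27.6%.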

How the data were processed

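The authors deposited 1 list of Foxp4 peaks, a narrowPeak file annotated with HOMER's annotatePeaks.pl on mm10, per the file headers. Each peak carries a whole-number score made by the authors, with no stated scale. The submitters' processing notes name deepTools 3.3.0, MACS2, SAMtools, Picard and Bowtie2, with no roles or settings. The analysis used all 3317 peaks and dropped 1 line that held none. Input reads were not analysed here.

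Gene bodies came from RefSeq's GRCm38.p6 table, where all 10 genes matched. Distances run from the peak midpoint to the gene body, as lower (-) or higher coordinate, unless said to be from the start site, where they are the list's own and - is upstream. The background is the 21883 protein-coding genes on chromosomes. The window search was checked on planted peaks. Intervals are exact binomial (Clopper-Pearson) or Poisson. Python 3.11.15, pandas 2.3.3 and scipy 1.17.1 were used.

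The genes and lists were chosen with earlier results of these data known. All 10 genes were described, and of the other pathway genes those with a peak within 3 kb of the start and up to 3 per role with the highest scores. Some results are not reported here.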

Additional observations from a re-analysis of the deposited data

How the results depend on the processing

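With 1 library there was no replicate to leave out. No paired analysis was possible because each group holds 1 library. Of 35 recomputed values 32 stayed within 1.5 times the reported count or, for the median score, within 55 to 285, its order-statistic interval (96.9% coverage). That interval runs from the lowest to the highest score of the 6 peaks, so the median of any subset of them must fall inside it. Dropping peaks with scores below 30 removed none of the 6. For these values the outcome was fixed in advance, so the count of 32 overstates how much was checked. Limiting the near window to the gene body left 1 gene, Smad6, in place of 4. Widening the outer window to 200 kb gave 10 peaks in place of 6 and added Smad3. Leaving out peaks below the list's median score lowered the named genes of the wider pathway list to 16, against 29. That setting removes peaks at all genes, and the share of protein-coding genes under it is not given here. The drop therefore does not show a change relative to other genes. The number of the 10 genes with a peak within 100 kb ranged from 4, by nearest gene alone, to 7, at 200 kb. The planned window around start sites was not run, since start sites were given for 6 of the 10 genes. Peak calling without replicates and unknown read depth limit what the absence of a peak shows.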
